A study of Mus musculus with 4 samples.

Results

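The 10 core genes of the circadian clock, Arntl (the gene of BMAL1), Clock, Npas2, Per1, Per2, Per3, Cry1, Cry2, Nr1d1 and Dbp, were followed by symbol in RNA sequencing of sorted mouse hair follicle stem cells. All 10 were found among 24084 gene rows, and all 10 passed the filter on low counts that left 12920 genes to test. The Foxp3-DTR group (libraries C and D) came from C57BL/6 mice in which regulatory T cells, under the Foxp3 locus, carry the diphtheria toxin receptor and are labelled as depleted. The WT group (libraries A and C) came from C57BL/6 mice labelled as keeping these cells. Both groups were 7 to 10 weeks old, received diphtheria toxin at 15 ng/g into the peritoneum and were sampled 4 days after depilation of back skin, when plucked follicles re-enter growth. The labels give neither the hour of collection nor the lighting schedule, so time of day and group cannot be told apart. They also do not say whether a library is 1 animal or a pool, so the spread behind each p-value is that of libraries and may be technical.

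The mammalian clock is a loop of transcription. BMAL1 pairs with CLOCK or its relative NPAS2, and the pair binds E-box elements to switch on the Per, Cry, Nr1d1 and Dbp genes. PER and CRY proteins then return to the nucleus and hold the pair back, while NR1D1 (REV-ERB alpha) represses Arntl, so that Arntl and Npas2 peak at the opposite time of day from Dbp, Nr1d1 and Per3. In mouse skin the clock is known to run in follicle and interfollicular keratinocytes, and to be heterogeneous among bulge stem cells.

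Sequence ahead of the start sites is shown for Per1, Cry1 and Per3, since these were the only members whose RefSeq promoter window (GRCm38.p6, 250 bases before to 50 after a start) held an E-box (CACGTG) or a D-box (TTATGTAA, bound by DBP and its relatives). Both strands were searched, and 9 of the 10 members had an entry. Per2 had no entry, so its promoter was not searched. Capitals mark the E-box in Per1 (chr11:69098699-69098948, plus strand) and Cry1 (chr10:85185055-85185304, minus strand) and the D-boxes in Per3 (chr4:151044666-151044915, minus strand), with the last base next to the start site.
Per1: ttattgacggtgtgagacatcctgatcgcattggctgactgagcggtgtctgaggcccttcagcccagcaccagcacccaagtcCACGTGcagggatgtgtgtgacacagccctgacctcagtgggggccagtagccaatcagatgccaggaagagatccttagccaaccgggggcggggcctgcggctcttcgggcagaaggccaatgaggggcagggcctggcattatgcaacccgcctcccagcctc
Cry1: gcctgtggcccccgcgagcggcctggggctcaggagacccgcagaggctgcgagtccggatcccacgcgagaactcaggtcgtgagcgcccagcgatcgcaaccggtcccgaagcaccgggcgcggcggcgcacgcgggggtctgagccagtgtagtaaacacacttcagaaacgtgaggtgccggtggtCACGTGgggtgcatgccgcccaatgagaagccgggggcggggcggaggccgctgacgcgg
Per3: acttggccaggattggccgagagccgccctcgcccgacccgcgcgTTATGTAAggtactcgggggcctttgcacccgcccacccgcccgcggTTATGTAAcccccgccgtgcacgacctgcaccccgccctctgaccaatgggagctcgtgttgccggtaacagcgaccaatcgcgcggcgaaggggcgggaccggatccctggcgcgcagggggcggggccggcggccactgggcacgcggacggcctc
The E-box began 166 bases before the start in Per1 and 60 bases before it in Cry1, and the D-boxes of Per3 began 205 and 158 bases before it. The Per1 start used here lies inside the gene as annotated in GENCODE M21, which begins at 69095217. An E-box was present in 7.15% and a D-box in 0.938% of all 32851 windows. The AGGTCA core of the element bound by NR1D1 and ROR receptors was in windows of Arntl, Clock and Per1 and in 16.3% of all windows. A cAMP response element (TGACGTCA) was in windows of 0 members and in 1.79% of all. A match is a description of letters in this window, and elements farther away were not searched.

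Gene counts per library ranged from 13911765 to 15923154, and levels are given as CPM, which divides counts by the TMM-adjusted library size from edgeR. The 10 bulge and basal markers, led by Krt5, Krt15 and Krt14, were present in every library, with a summed level of 27335 to 31663 CPM in Foxp3-DTR and 33116 to 34003 CPM in WT. Defining markers of other cells were at or near 0: Cd2, Cd4, Foxp3 and Ctla4 had 0 counts in all libraries, as did Lum, Dpt, Cdh5, Kdr and Cldn5, and no T cell, myeloid or endothelial marker exceeded 4.74 CPM. The highest fibroblast marker was Col1a2, at up to 35.1 CPM, and the highest melanocyte marker was Dct, at up to 24.1 CPM. The 6 melanocyte markers summed to 29.8 and 39.7 CPM in Foxp3-DTR C and D, against 29.6 and 15.6 CPM in WT A and C. For 5 of them, all but Dct, both Foxp3-DTR libraries lay above both WT libraries, as in 22.0% of all tested genes. The part of melanocytes in the values of the clock genes was not tested. In bulk RNA, fewer cells of a type and less RNA per cell cannot be told apart. The libraries of each group stood apart in suprabasal keratinocyte genes, whose 9 markers summed to 1250 and 7312 CPM in Foxp3-DTR C and D, against 8636 and 1016 CPM in WT A and C. Sebaceous markers summed to 204 and 401 CPM in Foxp3-DTR C and D, against 1791 and 217 CPM in WT A and C. The groups differ in sex-linked transcripts as well: Xist was at 1.86 CPM in Foxp3-DTR C and at 0 counts in Foxp3-DTR D, against 861 and 2482 CPM in WT A and C, so sex and group cannot be told apart. The same holds for the code DEP3 in the Foxp3-DTR titles and DEP2 in the WT titles.

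Compared per kilobase of exon, Dbp and Nr1d1 stood far above the other members, and Npas2 and Arntl were lowest. Averaged over the 4 libraries, Dbp, which encodes a PAR bZIP factor driven directly by the clock, had a level of 116 CPM per kb, and Nr1d1 had 115 CPM per kb. Per1 followed at 30.1, Cry2 at 22.5, Per2 at 16.3, Per3 at 12.6, Cry1 at 8.86 and Clock at 8.78 CPM per kb. Npas2 had 3.28 and Arntl 1.70 CPM per kb. The library ranges of neighbours in this order overlapped except at 2 steps, between Nr1d1 (lowest library 88.7 CPM per kb) and Per1 (highest 36.2 CPM per kb), and between Clock (lowest 8.16 CPM per kb) and Npas2 (highest 5.12 CPM per kb). Lengths are merged exons of GENCODE M21, so annotated exons that these cells do not use lower a gene's value. Dbp shares 18.0% of its exon bases with Sphk2 and Nr1d1 shares 8.55% with Thra, each on the opposite strand, and because the strand setting of the counting is not given, reads in those bases are uncertain. Sphk2 itself ranged from 38.3 to 55.5 CPM and Thra from 82.7 to 120 CPM.

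**Figure D1:**
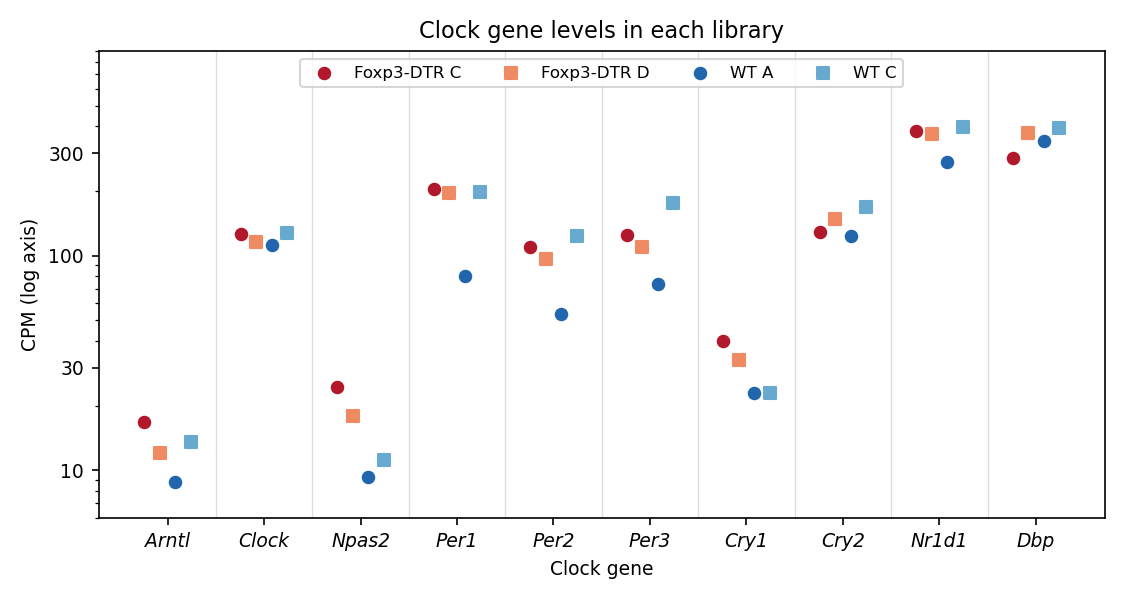
CPM of each clock gene (x axis) on a log axis, 1 point per library, with Foxp3-DTR libraries in red shades and WT libraries in blue shades. Both Foxp3-DTR points lie above both WT points for Npas2 and Cry1. The WT A point is the lowest for every member but Cry1 and Dbp.

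None of the 10 clock genes passed the comparison of Foxp3-DTR with WT in edgeR's quasi-likelihood test after Benjamini-Hochberg adjustment over all genes tested. The count was 0 higher and 0 lower, where 0.820% of all tested genes were called higher and 0.426% lower. DESeq2 and limma-voom also called 0. At an unadjusted p under 0.05, 2 members were higher (Npas2 and Cry1) and 0 lower, against 6.76% and 7.89% of all tested genes. The same 2 were the members with both Foxp3-DTR libraries above both WT libraries, a pattern found in 22.0% of all genes, and 0 members had the opposite pattern, found in 23.7%. Fold changes were positive for 7 members and negative for 3, and the median log2 value was 0.19 for the members and -0.01 for all genes tested.

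The activators came first in size of difference through Npas2, the CLOCK relative that can replace it (mm10 chromosome 1, 39193731 to 39363236). Npas2 stood at 24.5 and 17.9 CPM in Foxp3-DTR C and D, against 9.29 and 11.2 CPM in WT A and C. The groups did not overlap, and the difference between the 2 Foxp3-DTR libraries was larger than that between the WT libraries. Its log2 fold change was 1.05 ± 0.31 (SE), a 2.07-fold level with a 95% interval of 1.23 to 3.47, and its edgeR adjusted p was 0.173. Across all alternatives the log2 fold change ran from 0.80 to 1.27.

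Clock, the other partner of BMAL1 (chromosome 5, 76209868 to 76304792), was the most even member. It stood at 126 and 116 CPM in Foxp3-DTR C and D, against 112 and 128 CPM in WT A and C. The WT values enclosed the Foxp3-DTR values, and the log2 fold change was 0.01 ± 0.18 (edgeR adjusted p = 0.988), with a 95% interval of -0.41 to 0.44. Per kilobase, Npas2 reached 5.12 and 3.73 CPM per kb in Foxp3-DTR C and D, against 1.94 and 2.34 CPM per kb in WT A and C. Clock was above Npas2 in every library on that scale, at 9.16 and 8.46 CPM per kb in Foxp3-DTR C and D, against 8.16 and 9.32 CPM per kb in WT A and C.

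Arntl, the partner that both need (chromosome 7, 113207465 to 113314126), was the lowest member per kilobase of exon. In CPM it stood at 16.84 and 12.05 CPM in Foxp3-DTR C and D, against 8.80 and 13.5 CPM in WT A and C. WT C lay between the Foxp3-DTR libraries, so the groups overlapped. The log2 fold change was 0.37 ± 0.37 (edgeR adjusted p = 0.735). These values rest on 254 and 170 reads in Foxp3-DTR C and D, and 125 and 219 reads in WT A and C.

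The 3 Per genes, whose proteins carry the repressor complex, shared a pattern that was not a group difference, with WT A well below the other libraries in each. WT A was also the lowest library for every other member but Cry1 and Dbp. Per1 (chromosome 11, 69095217 to 69109960) stood at 204 and 196 CPM in Foxp3-DTR C and D, against 80.0 and 198 CPM in WT A and C. WT C was level with both Foxp3-DTR libraries. The log2 fold change was 0.53 ± 0.42 (edgeR adjusted p = 0.665). Without WT C, Per1 was called higher, with 1.33 on the log2 scale (edgeR adjusted p = 0.0334), and without WT A the value was 0.03 with an adjusted p of 0.974. Over all its alternatives the adjusted p ranged from 0.0334 to 0.9995. The fold changes of Per2, Per3, Cry2, Nr1d1 and Clock changed sign between the fit without WT A and the fit without WT C, with no call in either.

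Per2 (chromosome 1, 91415982 to 91459324) stood at 110 and 96.2 CPM in Foxp3-DTR C and D, against 53.6 and 123 CPM in WT A and C. Per3 (chromosome 4, 151003652 to 151044665) stood at 124 and 110 CPM in Foxp3-DTR C and D, against 73.9 and 175 CPM in WT A and C. For both, the WT libraries lay on either side of the Foxp3-DTR libraries. The log2 fold changes were 0.22 ± 0.39 and -0.09 ± 0.41, with edgeR adjusted p of 0.873 and 0.952. The intervals are wide: for Per3 the 95% interval ran from -1.11 to 0.93 on the log2 scale.

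Of the Cry genes, whose proteins block the activator pair, Cry1 was the second member with separate groups. Cry1 (chromosome 10, 85131700 to 85185064) stood at 40.1 and 32.6 CPM in Foxp3-DTR C and D, against 22.9 and 22.8 CPM in WT A and C. The WT libraries were nearly equal, unlike for the Per genes. The log2 fold change was 0.67 ± 0.23, a 1.59-fold level with a 95% interval of 1.08 to 2.35, and the edgeR adjusted p was 0.246. Cry2 (chromosome 2, 92403646 to 92434043) stood at 128 and 147 CPM in Foxp3-DTR C and D, against 123 and 169 CPM in WT A and C. The WT values enclosed the Foxp3-DTR values, and the log2 fold change was -0.08 ± 0.21 (edgeR adjusted p = 0.913). Whether Cry1 and Cry2 differ in their change was not tested.

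The REV-ERB gene and the output gene were abundant, and their groups overlapped. Nr1d1 (chromosome 11, 98767932 to 98775333) stood at 381 and 367 CPM in Foxp3-DTR C and D, against 273 and 396 CPM in WT A and C. WT A was again the lowest library. Its log2 fold change was 0.16 ± 0.23 (edgeR adjusted p = 0.830). Dbp (chromosome 7, 45705088 to 45710203) stood at 284 and 374 CPM in Foxp3-DTR C and D, against 343 and 392 CPM in WT A and C. Here Foxp3-DTR C was the lowest library, and the log2 fold change was -0.16 ± 0.21 (edgeR adjusted p = 0.813). The 95% interval of Dbp, -0.67 to 0.35 on the log2 scale, leaves room for a change in either direction.

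**Figure D2:**
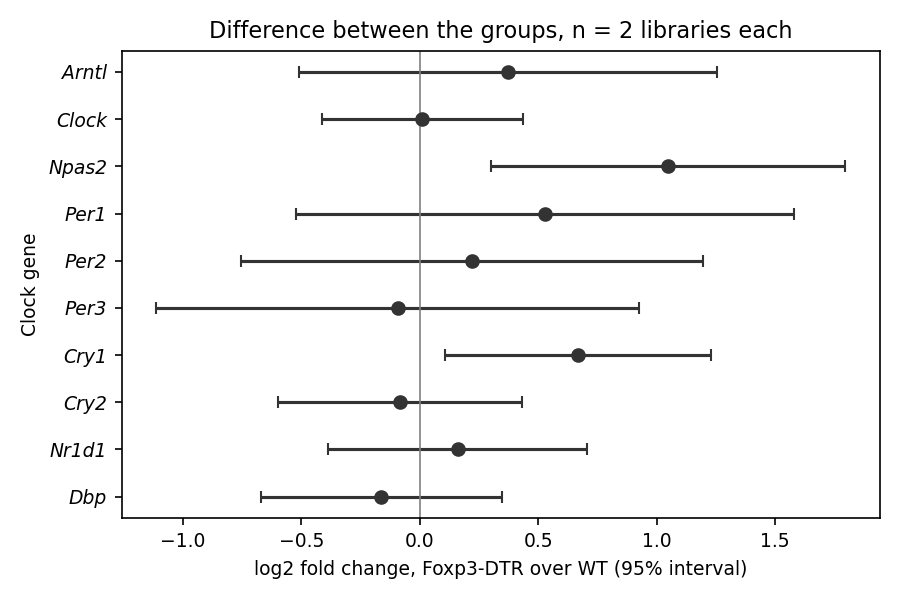
Log2 fold change of Foxp3-DTR over WT (x axis) for each clock gene (y axis), with bars for the unadjusted 95% interval of edgeR's quasi-likelihood fit, n = 2 libraries a group. The intervals of Npas2 (1.05) and Cry1 (0.67) lie above 0, those of the other 8 members include 0, and no member passed after adjustment over all genes.

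The spread within WT was larger than most differences between groups. WT C exceeded WT A for 9 of the 10 members, against 50.4% of all tested genes. It also exceeded WT A for 8 of the 10 bulge and basal markers, and for 0 of the 9 suprabasal markers. The ratio of WT C over WT A was 2.47 for Per1, 2.30 for Per2 and 2.37 for Per3. Exact 95% intervals, which cover counting error only, were 2.31 to 2.65, 2.11 to 2.50 and 2.21 to 2.55. The ratio was 1.53 for Arntl, 1.45 for Nr1d1, 1.37 for Cry2, 1.14 for Clock and for Dbp, 1.20 for Npas2 and 0.997 for Cry1. Thus 3 of 10 members differed by 2-fold or more between the WT libraries, where 11.8% of the 12639 tested genes with counts in every library did. The median absolute log2 ratio was 0.49 for the members and 0.35 for those genes.

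Between the Foxp3-DTR libraries the clock genes were closer. Foxp3-DTR C exceeded Foxp3-DTR D for 8 of the 10 members, against 50.3% of genes with counts in every library. The ratio of Foxp3-DTR C over Foxp3-DTR D ran from 0.760 for Dbp to 1.40 for Arntl, and was 1.04 for Per1, 1.14 for Per2 and 1.13 for Per3. A difference of 2-fold or more was seen for 0 members and for 9.25% of all genes, and the median absolute log2 ratio was 0.19 for the members and 0.25 for all. Suprabasal genes differed by 2-fold or more within both groups (8 of 9 in each), and the Per genes did so within WT alone. Krt10, a suprabasal keratin, was at 458 and 3796 CPM in Foxp3-DTR C and D, where Per1 was level. Krt10 was at 4562 and 249 CPM in WT A and C, where Per1 was 2.47-fold apart. The sebaceous gene Scd1 was highest in WT A, the library with low Per genes, at 1336 CPM, against 119 to 237 CPM in the other libraries. The part of these cell types in the Per values was not tested.

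**Figure D3:**
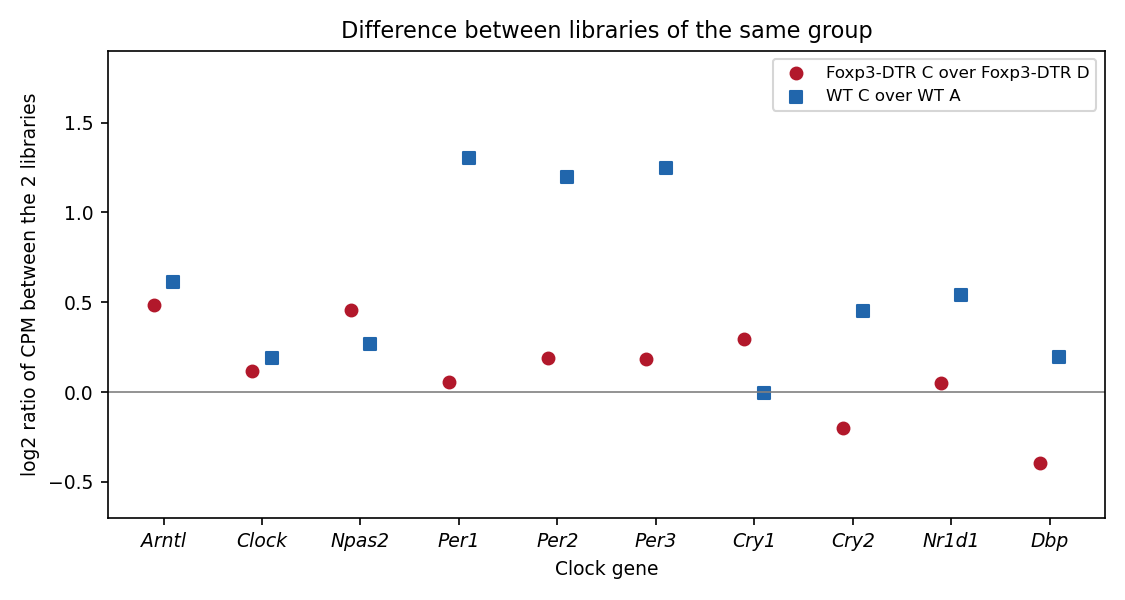
Log2 ratio of CPM between the 2 libraries of a group (y axis) for each clock gene (x axis), Foxp3-DTR C over Foxp3-DTR D as red circles and WT C over WT A as blue squares. The 3 Per genes stand between 1.20 and 1.31 within WT and between 0.05 and 0.19 within Foxp3-DTR.

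Ratios between genes of opposite phase do not depend on how libraries are scaled and are given in reads, with no test. Dbp had 16.9 and 31.0 times the reads of Arntl in Foxp3-DTR C and D, against 39.0 and 29.1 times in WT A and C. Nr1d1 had 22.6 and 30.5 times the reads of Arntl in Foxp3-DTR C and D, against 31.0 and 29.4 times in WT A and C. Foxp3-DTR C had the smallest ratio for both, and Foxp3-DTR D lay between the WT libraries. Per3 had 7.38 and 9.09 times the reads of Arntl in Foxp3-DTR C and D, against 8.40 and 13.0 times in WT A and C, and these groups overlapped. Dbp had 11.6 and 20.9 times the reads of Npas2 in Foxp3-DTR C and D, against 36.9 and 35.0 times in WT A and C. This was the 1 ratio of the 4 without overlap between groups. In every library Dbp, Nr1d1 and Per3 exceeded Arntl, and Dbp exceeded Npas2.

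Genes around the loop were taken from 4 lists chosen with earlier results of these data known. Of 52 tested genes, 3 rose in Foxp3-DTR and 0 fell in edgeR's test over all genes, a share to be read against 0.820% and 0.426% of all genes. The 3 were Bhlhe40, Zbtb16 and Cebpd. With DESeq2, 11 of 53 rose and 2 fell, where 3.61% of all genes were called higher and 3.79% lower. With limma-voom 1 of 52 rose and 0 fell, where 0.542% of all genes were called higher and 0.178% lower.

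Among 10 tested regulators of the loop, the median on the log2 scale was 0.16. Of these, 1 rose and 0 fell, against 0.820% and 0.426% of all tested genes. That gene was Bhlhe40 (DEC1), an E-box repressor that competes with the BMAL1 pair. It stood at 123 and 115 CPM in Foxp3-DTR C and D, against 55.1 and 50.7 CPM in WT A and C, so both groups were tight and apart. The log2 fold change was 1.17 ± 0.17 (edgeR adjusted p = 0.0427). The adjusted p was 0.0531 with limma-voom, 0.172 without Foxp3-DTR C and 0.0533 without Foxp3-DTR D, and ranged from 7.49e-06 to 0.172 over its alternatives. Bhlhe41, in the same list, went the other way, also without overlap. It stood at 50.1 and 83.0 CPM in Foxp3-DTR C and D, against 86.6 and 113 CPM in WT A and C. Its log2 fold change was -0.58 ± 0.28 (edgeR adjusted p = 0.431). Timeless and Tipin, partners at the replication fork, stood lower by -1.11 ± 0.23 and -0.84 ± 0.28 on the log2 scale without passing (edgeR adjusted p = 0.0778 and 0.225). Timeless was called lower by DESeq2 (adjusted p = 0.00447) and by edgeR with no filter on low counts (adjusted p = 0.0389). All 15 tested proliferation genes, such as Mki67 and Mcm6, also had negative fold changes, with a median log2 fold change of -1.96. Of these, 3 passed, where 0.426% of all tested genes were called lower. The 15 summed to 510 and 776 CPM in Foxp3-DTR C and D, against 2681 and 1759 CPM in WT A and C. For 15 of 15, both Foxp3-DTR libraries lay below both WT libraries, as in 23.7% of all tested genes. The part of cycling cells in the values of Timeless and Tipin was not tested.

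Of 11 tested clock outputs, 0 passed in edgeR's test, against 0.820% of all tested genes called higher and 0.426% lower. At an unadjusted p under 0.05, 5 outputs were higher and 1 lower, against 6.76% and 7.89% of all tested genes. Of the 3 outputs with the smallest edgeR p, DESeq2 called Klf10 and Tspan4 higher and Wee1 lower. Their DESeq2 adjusted p were 0.00726, 0.0467 and 0.0243, where DESeq2 called 3.61% of all genes higher and 3.79% lower. DESeq2 results of the other outputs are not given here. With no filter on low counts, edgeR called Klf10 higher (adjusted p = 0.0483). The median log2 fold change was 0.32. Klf10, a clock-regulated zinc finger factor, stood at 75.7 and 78.4 CPM in Foxp3-DTR C and D, against 43.4 and 43.8 CPM in WT A and C (log2 fold change 0.82 ± 0.18, edgeR adjusted p = 0.0835). Wee1, the mitotic kinase with E-boxes known in its promoter, stood at 25.2 and 33.4 CPM in Foxp3-DTR C and D, against 59.6 and 52.5 CPM in WT A and C. Its log2 fold change was -0.93 ± 0.23 (edgeR adjusted p = 0.110). Tspan4, a tetraspanin, had 1.40 ± 0.39 (edgeR adjusted p = 0.152). Groups did not overlap for these 3 genes, which had the smallest p of the list. Of all 11 outputs, 7 were higher and 2 lower without overlap, against 22.0% and 23.7% of all tested genes.

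Enzymes that modify clock proteins had the median closest to 0 of the 4 lists. Of 18 tested kinases, ubiquitin ligases and related enzymes, 0 passed in edgeR's test, against 0.820% of all tested genes called higher and 0.426% lower. The median log2 value was 0.02. At an unadjusted p under 0.05, 0 were higher and 1 was lower, against 6.76% and 7.89% of all tested genes. The members with the smallest p were Parp1, Sirt1 and Fbxl21. Their log2 fold changes were -0.58 ± 0.21, 0.39 ± 0.24 and -1.44 ± 0.64, with edgeR adjusted p of 0.268, 0.540 and 0.377. Fbxl21, a ubiquitin ligase subunit for CRY, was at 1.53 and 1.49 CPM in Foxp3-DTR C and D, against 3.45 and 4.74 CPM in WT A and C.

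Of 13 tested genes of the glucocorticoid, cAMP and heat shock signals that can induce Per genes, 2 rose and 0 fell in edgeR's test. The shares over all tested genes were 0.820% and 0.426%. Fold changes were positive for 8 genes and negative for 5, and the median log2 value was 0.34. The negative ones were Nr3c1 (-0.08), Ddit4 (-0.30), Creb1 (-0.19), Crem (-0.16) and Hsf1 (-0.14). Described next are the 3 genes with the smallest p. Cebpd, a transcription factor induced by glucocorticoids and by inflammatory cytokines, stood at 175 and 144 CPM in Foxp3-DTR C and D, against 9.64 and 13.2 CPM in WT A and C. Its log2 fold change was 3.80 ± 0.25 (edgeR adjusted p = 0.0033), and it passed in every alternative. Zbtb16, a glucocorticoid-inducible zinc finger factor, stood at 49.1 and 41.8 CPM in Foxp3-DTR C and D, against 10.6 and 15.0 CPM in WT A and C. Its log2 fold change was 1.82 ± 0.27 (edgeR adjusted p = 0.0427), with an adjusted p of 0.119 without Foxp3-DTR C, 0.0531 with limma-voom and 2.17e-06 to 0.119 over its alternatives. Sgk1, a kinase induced by glucocorticoids, was at 1177 and 1011 CPM in Foxp3-DTR C and D, against 401 and 609 CPM in WT A and C, and did not pass (log2 fold change 1.12 ± 0.26, edgeR adjusted p = 0.0954). Sgk1 was called higher by DESeq2 (adjusted p = 0.00028), and by edgeR with no filter (adjusted p = 0.0353) and without WT C (adjusted p = 0.0334).

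**Figure D4:**
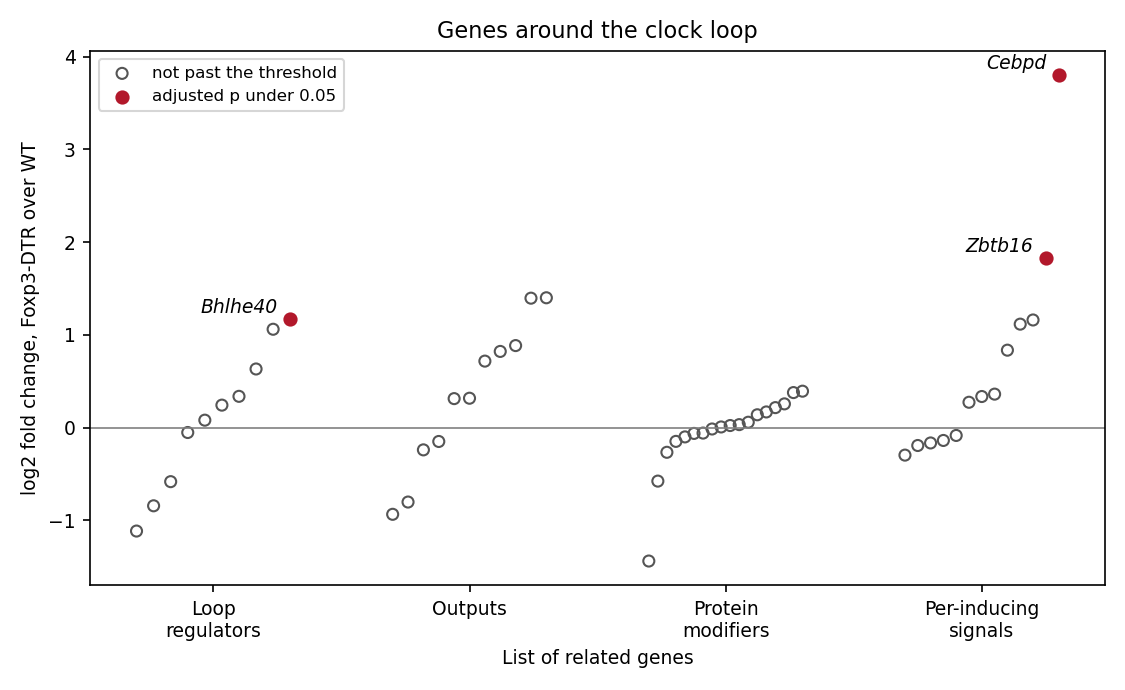
Log2 fold change of Foxp3-DTR over WT (y axis) for each tested gene of the 4 lists (x axis), sorted within a list; filled red points passed edgeR's test over all genes and open points did not. Bhlhe40 (1.17), Zbtb16 (1.82) and Cebpd (3.80) are the filled points, and the median of the protein modifiers is 0.02.

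The genes nearest in pattern were sought for the member with the largest rise and that with the largest fall, as the root mean square difference of centred log2(CPM + 0.5) over the 4 libraries among 10500 genes. Nearest to Npas2 were Steap4, a metalloreductase (0.020), Ifi35, an interferon-induced gene (0.027), and Stambpl1, a deubiquitinase (0.039). Steap4 stood at 1280 and 907 CPM in Foxp3-DTR C and D, against 484 and 586 CPM in WT A and C, and its edgeR adjusted p was 0.0999. Nearest to Dbp were Mpp2 (0.014), Ldhd (0.017) and Crem (0.022), all between 6.63 and 22.3 CPM. With 4 libraries, close likeness is easily found, and it shows only that the genes have similar log2 differences between libraries.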

How the data were processed

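RNA was sequenced from 4 libraries, 2 Foxp3-DTR and 2 WT, grouped by the genotype label. Per the labels' protocols, a stranded poly(A) mRNA kit was used. The deposited table holds raw counts, 1 whole number per gene symbol and library, which the authors did not normalize. The submitters' processing notes name HTSeq 0.6.1, TopHat2 2.0.12 and build mm10, with gene annotation and strand setting not given in the sources used here. The 5 counter rows that name no gene, 62.0% to 70.1% of a library's counts, were left out.

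All genes were fitted in R 4.3.3 with edgeR 4.0.16 (filterByExpr, TMM, robust glmQLFit, glmQLFTest), with group alone as the term, Benjamini-Hochberg adjustment over all genes tested and a threshold of 0.05. SEs come from the fold change and the F statistic. Alternatives used other scaling factors, no filter, DESeq2 1.42.0, limma-voom (limma 3.58.1) and each library left out. The procedure was also tested on simulated counts. Of 50 genes set to a 2-fold change, 34% were called, and of 50 set to 4-fold, 86%. There were 18 false calls, so many 2-fold changes would be missed. A count of 0 allows up to 3 counts, at most 0.213 CPM. Members and lists were chosen with earlier results of these data known. Named were all members, each related gene past the threshold and, per list, the 3 smallest p, with Bhlhe41 added beside Bhlhe40. Coordinates are from GENCODE M21.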

Additional observations from a re-analysis of the deposited data

How the results depend on the processing

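No paired analysis was possible because the groups share only 1 replicate letter. In the other settings tried, the count of clock genes past the threshold stayed at 0 in both directions, except that it was 0 to 1 higher over the fits without each library (Per1, without WT C). The related genes past the threshold were 5 higher and 1 lower with no filter on low counts, 11 and 2 with DESeq2, 1 higher with limma-voom, and 2 to 7 higher without each library. Over all genes, 106 higher and 55 lower became 277 and 252 with no filter, 489 and 514 with DESeq2, 70 and 23 with limma-voom, and 66 to 203 higher and 14 to 220 lower without each library. The cause was not tested.

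Signs of small differences turned, none of them past the threshold. Clock was at -0.042 on the log2 scale with upper-quartile factors, and Per3 at 0.032 with limma-voom. Over the fits without each library, Clock ran from -0.069 to 0.11, Per2 from -0.24 to 0.95, Per3 from -0.57 to 0.67, Cry2 from -0.28 to 0.16, Nr1d1 from -0.071 to 0.46 and Dbp from -0.36 to 0.026. Arntl, Npas2, Per1 and Cry1 kept a positive sign in all 9 alternatives. With 1 library left in a group, it was assumed to vary like the other group. Over the same fits the group difference in log2 read ratio ran from 0.12 to 0.9995 for Arntl over Dbp, from -0.014 to 0.42 for Arntl over Nr1d1, from 0.036 to 0.67 for Arntl over Per3 and from 0.78 to 1.64 for Npas2 over Dbp. With 2 libraries a group, an interval such as that of Per1, -0.52 to 1.58, limits what can be seen.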
